A study of Danio rerio with 4 samples.

Results

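The outermost CTCF peaks of the zebrafish chromosomes were taken as the peaks whose centre lies within 250 kb of either end of a chromosome. The left end is base 0 and the right end is the last base of the last peak. The 20 chromosomes described are 1, 2, 3, 5, 6, 8 to 15, 17, 19 to 21 and 23 to 25, so that there are 40 ends and 10 Mb of end sequence in all. These windows held 1016 peaks, of 28603 peaks on the 20 chromosomes and 37625 in the whole list. That is 3.55% of the peaks on these chromosomes, in 0.958% of the length that the chromosomes span. The left windows held 603 members and the right windows 413. They are set against the interior, meaning the 18929 peaks more than 5 Mb from both ends of the same chromosomes.

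CTCF binding was mapped by ChIP-seq in whole embryos of the AB strain at 24 hpf (hours post fertilisation). The 2 ChIP libraries were made with an antibody against the HA epitope, and the 2 input libraries used no antibody. All 4 libraries share the genotype ctcf{HPSH}, and the embryos came from crosses of ctcf HA/wt fish, 2000 embryos for each replicate. The list holds peaks called on the combined ChIP replicates, in danRer10 coordinates, so every value below comes from 1 pooled measurement of many tissues. A spread given here is the SD over chromosomes, not over embryos.

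CTCF is a DNA-binding protein with an array of zinc fingers. In vertebrates it stops the loop extrusion carried out by cohesin, and convergent CTCF sites often mark the boundaries of chromatin loops and domains. Chromosome ends consist of telomeric repeats followed inward by subtelomeric sequence, which is often repetitive and hard to assemble. In human cells CTCF is known to bind near the promoters of the telomeric transcripts called TERRA. Genes, repeats and sequence motifs of these windows were not analysed here, as no sequence or annotation of danRer10 was used.

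CTCF peaks were several times denser at the ends than in the interior of the same chromosome. The density over both end windows of a chromosome averaged 102 ± 29.8 peaks per Mb, and in the interior it averaged 22.7 ± 2.60 peaks per Mb (SD, n = 20 chromosomes each). Over the 20 chromosomes the end densities had a lowest value of 46, a median of 98 and a highest value of 154 peaks per Mb. The interior densities ran from 17.8 to 28.5 peaks per Mb, so the ranges of these chromosome values did not overlap. Each interior value averages far more sequence than the end windows, which narrows its range. Single windows of 250 kb did overlap, with up to 31 peaks in an interior window and as few as 5 at an end. The ratio of ends to interior was 4.30 as a geometric mean, or 2.10 ± 0.50 on the log2 scale. All 20 chromosomes had a ratio above 1 (two-sided sign-flip permutation test over chromosomes, p = 1e-05, which is the lowest value that 100000 resamples allow, with an adjusted p of 1.75e-05 over 7 comparisons). Chromosome 21 had the highest ratio, 7.02, and chromosome 23 the lowest, 1.86. Peaks covered 3.70% of the end windows and 0.725% of the interior.

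Single ends ran from sparse to crowded. An end window held 24 peaks in the median (quartiles 16.5 and 33.5), with a lowest count of 5 and a highest of 55. The 3366 interior windows of the same 250 kb length held 5 peaks in the median (quartiles 3 and 7), their 95th percentile was 13 and their maximum 31. Of the 40 ends, 34 (85.0%) reached that 95th percentile, against a background of 6.21% of the interior windows. These were 17 left ends and 17 right ends. Among them, 22 ends held more peaks than any interior window of their own chromosome, and 5 chromosomes had both ends in that class.

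**Figure D1:**
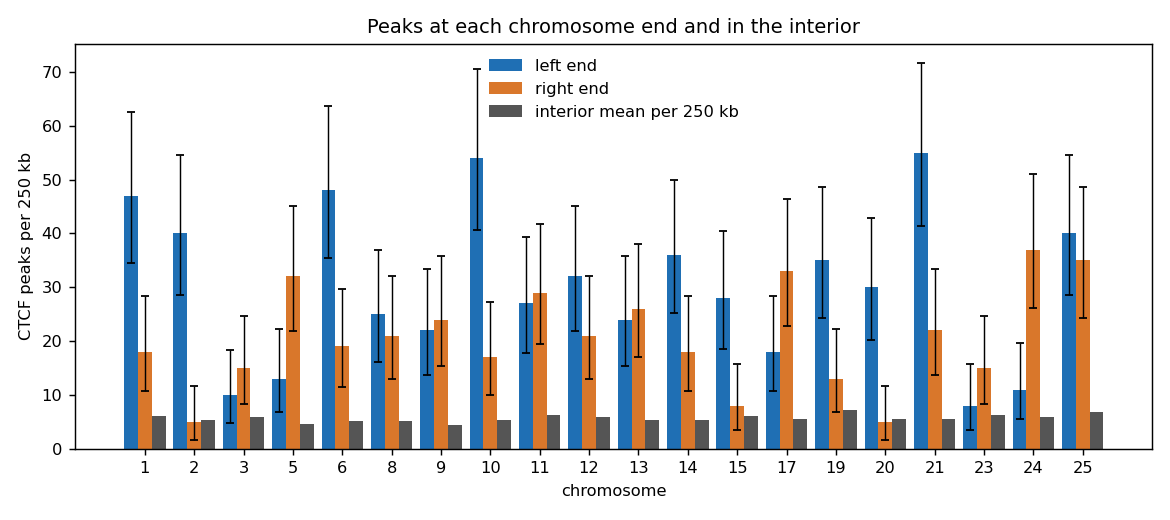
CTCF peaks in the 250 kb at the left (blue) and right (orange) end of each of 20 chromosomes, with the mean number per 250 kb of that chromosome's interior (grey). Error bars are exact Poisson intervals at the 95% level, which cover counting error only. Counts at the ends run from 5 to 55, and the tallest 4 bars are the left ends of chromosomes 21, 10, 6 and 1.

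The densest ends were all left ends. The left end of chromosome 21 held 55 peaks (95% exact Poisson interval 41.4 to 71.6, counting error only), the left end of chromosome 10 held 54, and the left ends of chromosomes 6 and 1 held 48 and 47. The left ends of chromosomes 2 and 25 followed with 40 each. In these windows the crowding took different forms. On chromosome 1, 23 of the 47 peaks lay in the outermost 50 kb. On chromosome 10, 23 of 54 lay between 50 and 100 kb, and on chromosome 6, 15 of 48 lay between 50 and 100 kb and another 15 between 100 and 150 kb. On chromosome 21 the peaks were spread through the window, with 10, 10, 9, 10 and 16 in successive bins of 50 kb from the end inward.

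The sparsest ends came near the density of the interior. The right ends of chromosomes 2 and 20 held 5 peaks each (95% exact Poisson interval 1.62 to 11.7). At least as many were held by 51.0% of the 198 interior windows of chromosome 2 and by 48.6% of the 181 interior windows of chromosome 20. Their 20 peaks per Mb stood against 21.1 and 22.4 peaks per Mb in the interior of chromosomes 2 and 20. The right end of chromosome 15 and the left end of chromosome 23 held 8 peaks each, and the left end of chromosome 3 held 10. These last 3 ends were above their interior in density. Interior windows with as many peaks or more were 44 of 150 on chromosome 15, 46 of 145 on chromosome 23 and 35 of 209 on chromosome 3.

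Both ends of each chromosome were then set side by side. Left windows held 30.2 ± 14.3 peaks and right windows 20.7 ± 9.37 (SD, n = 20 ends each). The left end held more in 12 chromosomes and the right end in 8, and the log2 ratio of left to right was 0.54 ± 1.29 (two-sided sign-flip permutation test, p = 0.0781, adjusted p = 0.156 over 4 comparisons). The ratio was smaller in windows of 100 kb (0.15, permutation p = 0.621, adjusted p = 0.621) and of 500 kb (0.35, p = 0.146, adjusted p = 0.292). The greatest contrasts were chromosome 2, with 40 peaks at its left end and 5 at its right end, and chromosome 24, with 11 at its left end and 37 at its right end. Across the 20 chromosomes the counts of both ends had Pearson's r = -0.263 and Spearman's rho = -0.233, given as a description. All points come from 1 list and so share libraries and depth. The ends are also not defined alike, since a left window starts at base 0 and includes any stretch without peaks, whereas a right window starts at a peak. With left ends counted from the first peak, the log2 ratio of left to right density was 0.61 (permutation p = 0.0483, adjusted p = 0.0965). Without the outermost peak of each end it was 0.58 (permutation p = 0.0802, adjusted p = 0.16).

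**Figure D2:**
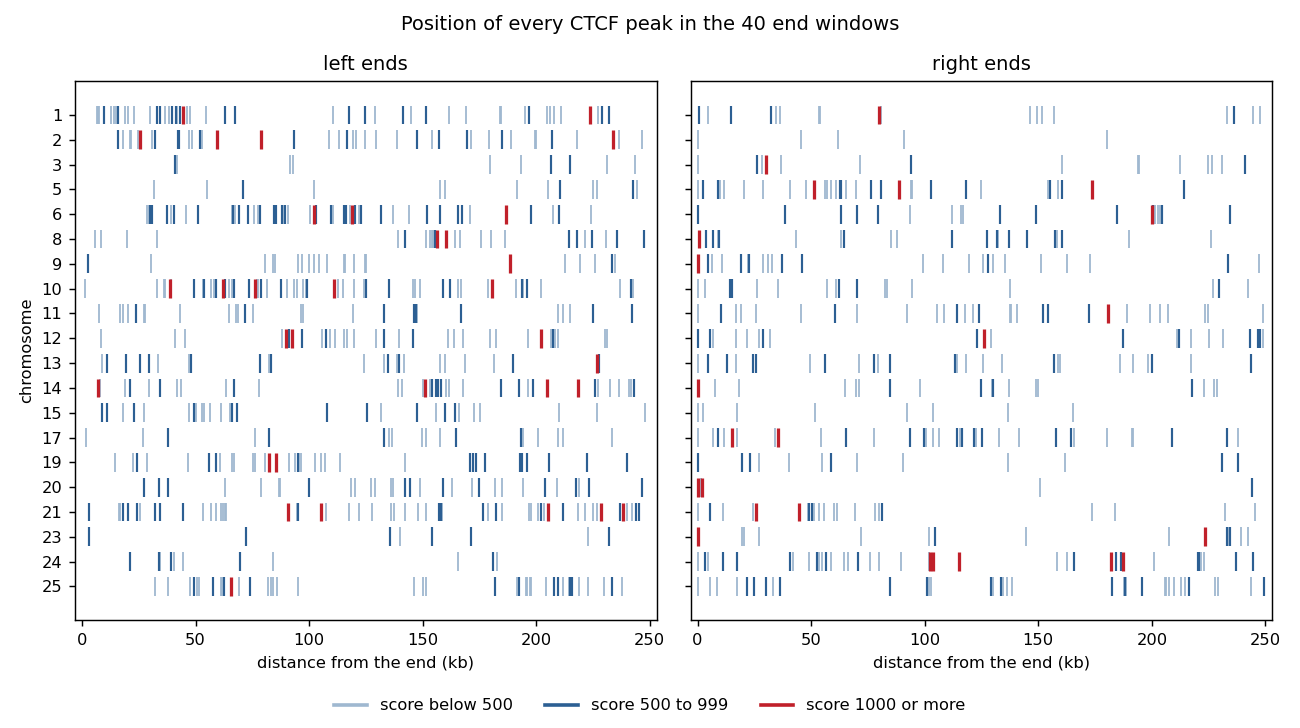
Every peak in the 40 end windows, drawn as a line at the distance of its centre from the left end (left panel) or the right end (right panel) in kb, with 1 row per chromosome. Colour gives the class of the authors' score. The left ends of chromosomes 1, 6, 10 and 21 are crowded. The right ends of chromosomes 2 and 20 are the sparsest, with 5 peaks each, near the density of their interiors. Of the 1016 peaks, 57 score 1000 or more (33 of 603 at left ends, 24 of 413 at right ends). Among all 28603 peaks of the 20 chromosomes, a score of 1030 ranked 824 and a score of 984 ranked 1005. At least 824 and fewer than 1005 of them thus score 1000 or more, and the exact share was not taken.

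The density by distance from the end was taken for left and right ends apart. Its intervals cover counting error of the summed peaks only, not the spread between ends. Over all left ends the density was 125 peaks per Mb in the outermost 50 kb (95% exact Poisson interval 104 to 149) and still 111 peaks per Mb at 200 to 250 kb (91.3 to 134). Over all right ends it was 120 peaks per Mb in the outermost 50 kb (99.5 to 143) and 85 peaks per Mb at 50 to 100 kb. Farther in, the right bins held 76 peaks per Mb at 100 to 150 kb, 56 at 150 to 200 kb (42.3 to 72.7) and 76 at 200 to 250 kb (59.9 to 95.1). The outermost 50 kb of every right end contains its last peak by definition, and without the outermost peak of each end the density there was 105 peaks per Mb on the left (85.9 to 127) and 100 on the right (81.4 to 122), a count added after seeing the data. Just beyond the limit, at 250 to 300 kb, the density was 89 peaks per Mb on the left and 75 on the right. Left bins from 300 to 500 kb ran from 56 to 79 peaks per Mb. Right bins from 250 to 500 kb ran from 67 to 90 peaks per Mb, against 56 to 76 at 100 to 250 kb. All these bins lay above the interior mean of 22.7 peaks per Mb. Within 5 kb inside the limit there were 13 peaks, whose median score was 429 and median width 351 bp, and within 5 kb outside it 19 peaks, whose median score was 388 and median width 279 bp. Bins of 50 kb over both sides showed no such step, with medians of 427 and 284 bp at 200 to 250 kb and 433 and 287 bp at 250 to 300 kb. From 300 to 500 kb the bin medians were 398.5 to 428 and 268.5 to 295 bp, against 359 and 259 bp for interior peaks. Higher scores and widths were thus not confined to the end windows.

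**Figure D3:**
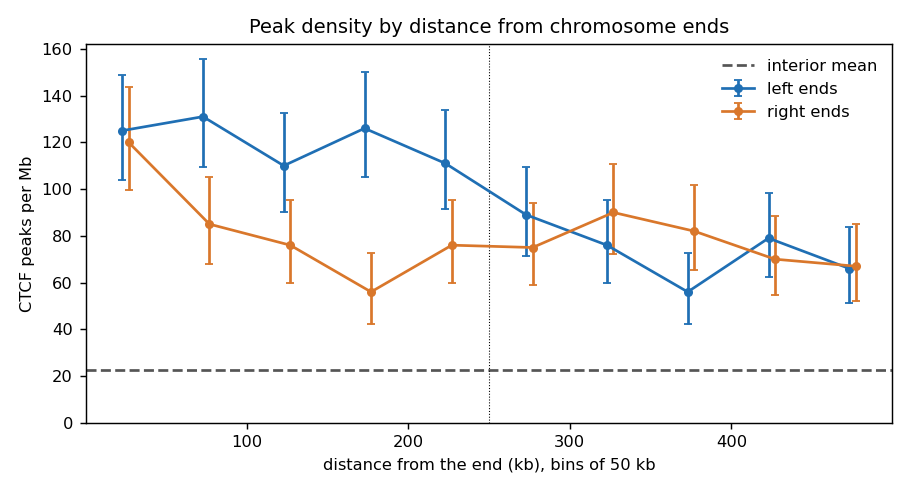
Peak density (peaks per Mb) in bins of 50 kb by distance from the end, summed over 20 left ends (blue) and 20 right ends (orange). Error bars are exact Poisson intervals at the 95% level, which cover counting error only, not the spread between ends. The dashed line is the mean interior density of 22.7 peaks per Mb and the dotted line the limit at 250 kb; every bin lies above the dashed line. The outermost right bin includes the 20 last peaks that define the right ends.

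The first peak of every left end lay within 41.0 kb of base 0. Where assembled sequence begins was not examined. The distance of the first peak from base 0 had a lowest value of 1.43 kb on chromosome 10, a median of 8.49 kb and a highest value of 41.0 kb on chromosome 3. On chromosome 10 this peak (chr10:1426-1675) scored 271, and on chromosome 3 the corresponding peak (chr3:40978-41312) scored 597. The outermost peaks of the left ends had a median score of 372.5 (range 166 to 1126), and those of the right ends 488.5 (range 221 to 3142). The outermost peak was also the strongest of its window at 1 left end (chromosome 3) and at 5 right ends (chromosomes 8, 9, 14, 20 and 23). Such counts depend on how many peaks a window holds. Neither they nor the scores of the outermost peaks were tested between left and right ends.

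Peaks at the ends lay close together. The median distance between centres of neighbouring end peaks was 5.47 ± 2.94 kb per chromosome, and that of interior peaks 23.9 ± 3.10 kb (SD, n = 20 chromosomes each). The log2 ratio was -2.26 ± 0.67, and all 20 chromosomes were below 0 (sign-flip permutation test, p = 1e-05, adjusted p = 1.75e-05). Spacing depends on density, so the ratio of the median to the mean distance was compared too. This ratio was 0.511 ± 0.0939 at the ends and 0.538 ± 0.0455 in the interior, a difference of -0.026 ± 0.10 that did not pass the sign-flip permutation test (p = 0.262, adjusted p = 0.367). Distances of both end windows of a chromosome were pooled, so unequal densities of these windows can change the ratio. It therefore does not compare evenness apart from density. By single end, the median distance ran from 2.0 kb at the left end of chromosome 6 to 47.2 kb at the right end of chromosome 20. Between left and right ends of a chromosome the log2 ratio of median distances was -0.78 ± 1.40, which did not pass after adjustment (permutation p = 0.0235, adjusted p = 0.0940). Without chromosome 5 it was -0.92 (permutation test, adjusted p = 0.0245) and without chromosome 24 it was -0.88 (adjusted p = 0.0445), so whether it passes depends on which chromosomes are included. Other choices made it smaller, at -0.27 among the highest-scoring 50% of the peaks (permutation p = 0.493, adjusted p = 0.657) and -0.48 with windows of 500 kb (p = 0.0737, adjusted p = 0.292).

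A neighbour within 2 kb was found for 471 of the 1016 end peaks (46.4%), against 19.99% of interior peaks and a background of 22.5% of all peaks on the 20 chromosomes. The share was 51.6% at left ends and 38.7% at right ends. A neighbour within 1 kb was found for 24.1% of end peaks, against 11.9% of interior peaks and a background of 12.8%. These shares follow in part from the higher density and were not tested. The closest 3 pairs had centres 386.5 bp apart at the right end of chromosome 23 (chr23:46034944-46035154 and chr23:46035298-46035573) and 390.5 bp apart at the left end of chromosome 1 (chr1:6710-6963 and chr1:7093-7361) and at the right end of chromosome 25 (chr25:36706104-36706361 and chr25:36706509-36706737).

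**Figure D4:**
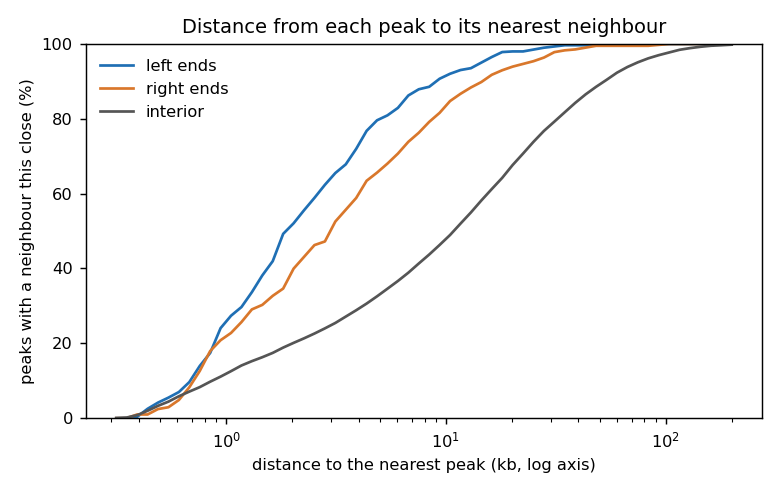
Percentage of peaks whose nearest neighbour on the chromosome lies within a given distance (kb, log axis), for left ends (blue), right ends (orange) and the interior (grey). At 2 kb the curves stand at 51.6% for left ends, 38.7% for right ends and 19.99% for the interior.

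Runs of 3 or more peaks, each within 2 kb of the next, were counted next. The end windows held 55 such runs with 201 peaks, or 19.8% of the members, and the interior held 317 runs with 5.66% of its peaks. Like the shares with a close neighbour, these shares follow in part from the higher density and were not tested. The share over all peaks of the 20 chromosomes was not taken. Of the 55 runs, 37 lay at left ends and 18 at right ends, and 20 of the 40 ends had none. The longest had 9 peaks within 11.1 kb at the left end of chromosome 1 (chr1:36543-47684), with a median score of 424 and a highest score of 1635. The next longest had 7 peaks at the left end of chromosome 6 (chr6:115446-123484) and 6 peaks at the right end of chromosome 6 (chr6:60061794-60066482). No interior run was longer than 6 peaks.

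Long distances between neighbouring peaks lay mostly in the sparser windows. In a window of fixed length the longest distance is tied to the count, so this is a description only. Interior windows were not measured in this way. Empty stretches between the edge of a window and its nearest peak were not counted. The right end of chromosome 15, for example, had no peak at 200 to 250 kb, and its longest counted distance was 40.7 kb. The longest distance between neighbouring centres exceeded 50 kb in 20 of the 40 ends, of which 17 held no more than the median count of 24 peaks and 3 held more. In the densest 4 ends it was between 15.6 and 43.2 kb. It was 149 kb at the right end of chromosome 20, where the peaks on either side were chr20:55187119-55187450 and chr20:55335873-55336354. At the left end of chromosome 8 it was 106 kb, and on the far side of that stretch 12 of the window's 25 peaks lay between 150 and 200 kb from the end.

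Peaks at the ends scored higher than interior peaks. The median score was 424 ± 51.0 at the ends and 360 ± 9.69 in the interior (SD, n = 20 chromosomes each), in the authors' own units. An end peak outranked an interior peak of the same chromosome in 58.1 ± 4.69% of pairs, and all 20 chromosomes exceeded 50% (sign-flip permutation test, p = 1e-05, adjusted p = 1.75e-05). Chromosome 6 had the highest share, 69.7%, and chromosome 9 the lowest, 50.8%. Score goes with width in the list (Spearman's rho = 0.531 across end peaks and 0.471 across interior peaks, as a description). Within quartiles of width the excess over 50% fell to 4.26 ± 5.71 percentage points, against 8.09 ± 4.69 percentage points over all pairs, and still passed (permutation test, adjusted p = 0.00521). A score in the highest 5% of the 20 chromosomes (904 or more) was held by 75 end peaks (7.38%), against 4.15% of interior peaks and a background of 5.01%. A score in the highest 1% was held by 19 end peaks (1.87%), against 0.792% of interior peaks and a background of 1.00%.

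Taken singly, 34 of the 40 ends outranked their chromosome's interior in more than 50% of pairs. The 6 that did not were the right ends of chromosomes 1, 2 and 15 and the left ends of chromosomes 5, 9 and 11. The lowest share was 35.4%, at the right end of chromosome 15, whose 8 peaks scored between 143 and 422. The highest was 74.7%, at the left end of chromosome 23, whose 8 peaks scored between 239 and 986 with a median of 631, against an interior median of 364. Median scores of single ends ran from 303.5 at the right end of chromosome 15 to 883 at the right end of chromosome 20, which has only 5 peaks.

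Width differed in the same direction as score. The median width was 291 ± 23.1 bp at the ends and 259 ± 3.16 bp in the interior (SD, n = 20 chromosomes each). No peak of either set was narrower than 200 bp. Many widths lay close to that value, with a lower quartile of 240 bp at the ends and 224 bp in the interior. An end peak was wider than an interior peak in 59.0 ± 4.95% of pairs, and 19 of 20 chromosomes exceeded 50% (sign-flip permutation test, p = 1e-05, adjusted p = 1.75e-05). The exception was chromosome 23, at 45.4%. Among the end peaks 66 (6.50%) were in the widest 5% of the 20 chromosomes (678 bp or more), against 4.77% of interior peaks and a background of 5.03%. Of these, 49 lay at left ends (8.13% of left members) and 17 at right ends (4.12% of right members). By single end the median width ran from 236 bp at the right end of chromosome 23 to 338 bp at the right end of chromosome 8.

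None of the 5 widest members was among the 10 strongest. The widest was 1985 bp (chr6:39671-41655, score 832), followed by 1635 bp (chr17:53320317-53321951, score 470), 1514 bp (chr13:77812-79325, score 533), 1451 bp (chr6:185762-187212, score 1106) and 1440 bp (chr1:58863832-58865271, score 814). The last of these was the outermost peak of chromosome 1.

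**Figure D5:**
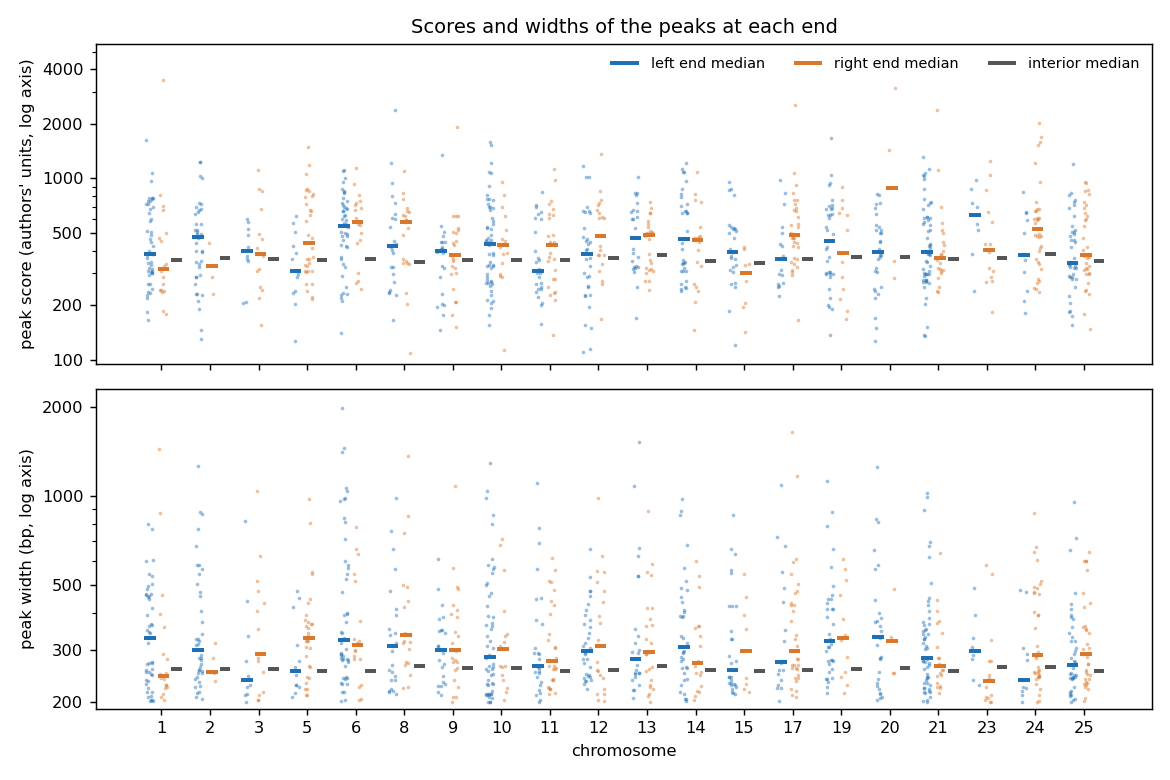
Score (upper panel, authors' units, log axis) and width (lower panel, bp, log axis) of every peak at the left (blue) and right (orange) end of each chromosome. Bars mark the median of each end and, in grey, of that chromosome's interior peaks. The right end of chromosome 20 has the highest median score, 883, from 5 peaks.

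Score and width were compared between left and right ends as well. The share of pairs in which the left-end peak had the higher score differed from 50% by -1.65 ± 13.3 percentage points (p = 0.581, adjusted p = 0.775), and the share in which it was wider by -0.0049 ± 10.4 percentage points (p = 0.998, adjusted p = 0.998, sign-flip permutation tests). Neither passed, and single chromosomes went either way.

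Summits lay near the middle of the peaks in both sets. The median summit stood at 49.8% of the width from the start at the ends and in the interior, with quartiles of 42.1% and 56.9% at the ends and 42.6% and 57.0% in the interior. Its distance from the middle was 7.54 ± 1.37% of the width at the ends and 7.16 ± 0.358% in the interior (SD of medians, n = 20 chromosomes each). The end peak had the farther summit in 50.6 ± 3.95% of pairs, which did not pass (sign-flip permutation test, p = 0.534, adjusted p = 0.534). Among the highest-scoring 50% of the peaks the excess was 3.15 percentage points (permutation test, adjusted p = 0.00501), and after merging of peaks with gaps of up to 500 bp it was 3.41 (adjusted p = 0.00125), so this result depends on which peaks are counted. Summits showed no significant lean toward the end or the centre of the chromosome, at -0.28 ± 1.25% of the width, where negative values point to the centre (permutation p = 0.342, adjusted p = 0.399). In windows of 100 kb the lean was -0.98 ± 1.74% and passed (permutation test, adjusted p = 0.0320).

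Of the 10 highest scores among the members, 7 lay at right ends and 3 at left ends. In the highest 1% the share was also larger at right ends, with 12 right members (2.91%) and 7 left members (1.16%), against a background of 1.00%. In the highest 5% the shares were alike, with 44 left members (7.30%) and 31 right members (7.51%), against the background of 5.01%. These shares were not tested between left and right ends. The highest score, 3486, belonged to a peak 79.8 kb from the right end of chromosome 1 (chr1:58785283-58785681, summit at 58785512), where the other 17 peaks scored at most 814. It ranked 4 on the 20 chromosomes. Next came 3142 at the outermost peak of chromosome 20 (chr20:55337893-55338213), with a neighbour of score 1430 2.10 kb from the end and a weaker peak of score 351 between them. Then followed 2525 on chromosome 17 (chr17:53292558-53292934, 35.4 kb from the right end) and 2383 on chromosome 21 (chr21:45833256-45833893, 44.6 kb from the right end). The fifth was 2373 at the left end of chromosome 8 (chr8:156040-156701), inside a run of 5 peaks of which the median score was 426.

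The right end of chromosome 24 held 2010 (chr24:42053611-42054256) and 1696 (chr24:42133286-42133799), along with 1578 (chr24:42132453-42132741) and 1526 (chr24:42120726-42121007). No other end had as many as 4 peaks in the highest 1%. The remaining members among the 10 highest scores were 1931 at the outermost peak of chromosome 9 (chr9:56880937-56881361), 1674 at the left end of chromosome 19 (chr19:81973-82547) and 1635 at the left end of chromosome 1 (chr1:44143-44683).

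A peak in the highest 1% occurred at 14 of the 40 ends. Besides the ends named above, these were the right ends of chromosomes 5 (1485, chr5:71605409-71605764) and 12 (1365, chr12:49074478-49074788) and the left ends of chromosomes 10 (1584, chr10:180463-180797), 9 (1354, chr9:188489-188782) and 21 (1306, chr21:238169-238552). In 5 of the 20 chromosomes (1, 8, 20, 21 and 24) the strongest peak of the whole chromosome was an end peak. At the other extreme, 9 ends held no peak in the highest 5%, and the strongest peak of the right end of chromosome 2 scored 442 and ranked 601 on its chromosome. Such counts of ends and chromosomes depend on how many peaks a window holds, 24 in the median at ends and 5 in interior windows. They were not tested, and the share of interior windows with such peaks was not taken. By peak, 1.87% of the members were in the highest 1%, against a background of 1.00%.

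The 5 peaks at the right end of chromosome 2 lay 0.158, 45.5, 61.7, 90.8 and 180 kb from the end and scored 230, 333, 442, 330 and 288. Those at the right end of chromosome 20 lay 0.161, 1.54, 2.10, 151 and 244 kb from the end and scored 3142, 351, 1430, 282 and 883. The distances 0.158 and 0.161 kb only reflect the widths of the last peaks, 316 and 321 bp, whose last base defines the right end. How far these peaks lie from the true chromosome end is not known here. The ends thus held the same number of peaks, scattered and all below 450 on chromosome 2, and on chromosome 20 with 3 peaks in the outermost 50 kb.

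Median scores of end peaks with and without a close neighbour lay within 5 units of each other. End peaks with a neighbour within 2 kb had a median score of 427 (n = 471), and those without had 422 (n = 545). In the interior the corresponding medians were 345 (n = 3784) and 363 (n = 15145). Across end peaks Spearman's rho between score and distance to the nearest peak was 0.013, given as a description.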

How the data were processed

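CTCF ChIP-seq of 24 hpf zebrafish embryos gave 1 deposited peak list, called by the authors on the combined replicates, per the file headers. Coordinates are danRer10, per the submitters' processing notes, which also list Bowtie2 2.2.5, CASAVA, cutadapt 1.3, deepTools 3.0.1, FastQC 0.9.3, MACS2, Picard 1.45 and SAMtools 1.1 without saying what each did. Caller settings and the use of the input are not stated in these sources. The deposited score is a whole number whose scale is not stated, so it was used as ranks and medians. Signal, p and q are 0 for every deposited peak. The list holds no read counts, so the depth of the libraries is unknown here.

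Chromosomes 4, 7, 16, 18 and 22 and scaffold peaks were left out by rule. Densities and spacings were taken as log2 ratios within each chromosome. Scores, widths and summit offsets were compared by the percentage of pairs in which the first peak had the higher value, with ties split. Tests were two-sided sign-flip permutations of the chromosome values, with 100000 resamples and Benjamini-Hochberg adjustment over 7 comparisons (ends against interior) or 4 (left against right). Chromosomes share the libraries, so p-values measure the spread between chromosomes of 1 list, not between embryos. Spacings join peaks of the same window. The interior was also tiled into windows of 250 kb. Assembly gaps were not removed.

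The tests were tried on simulated peaks placed uniformly, with and without added end peaks and raised end scores and widths. Scores and widths were drawn independently there, unlike in the list, so the trial does not show how the tests behave on clustered peaks. Named were the 10 highest-scoring members, the strongest peak of an end if in the highest 1%, the 5 widest, the 3 closest pairs, the nearest and farthest first peaks of left ends, and the 5 densest and 5 sparsest ends, ties included. Other peaks and ends were named after their values were seen. Members and tests were chosen with earlier results of these data known. Python 3.11.15, numpy 2.4.6, scipy 1.17.1, pandas 2.3.3 and matplotlib 3.10.9 were used.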

Additional observations from a re-analysis of the deposited data

How the results depend on the processing

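The higher density, closer spacing, higher scores and greater widths of end peaks kept their direction and stayed below the 0.05 threshold under every alternative run: end windows of 100 or 500 kb, an interior more than 10 Mb from both ends, left ends counted from the first peak, no outermost peaks, merging of gaps of up to 500 bp, the highest-scoring 50% of the peaks, all 25 chromosomes, each chromosome left out, score pairs within quartiles of width and, chosen after seeing the data, width pairs within quartiles of score. The member count was 461 and 1766 with windows of 100 and 500 kb and 600 for the highest-scoring 50%, by construction. The difference in median over mean spacing turned to 0.012 with windows of 100 kb. The lean of summits came to -0.98% with the same windows, and the summit offset passed at 3.41 percentage points for merged peaks and 3.15 for the highest-scoring 50%. The width difference of left and right ends, near 0, was 0.878 with windows of 500 kb, 0.252 from the first peak, 0.813 without outermost peaks, 0.457 merged, 3.94 in the highest-scoring 50% and 0.543 over 25 chromosomes. Leaving out 1 chromosome at a time gave -1.32 to 0.894 for it, and -0.92 to -0.65 for the log2 ratio of left to right spacing, which was -0.57 and -0.48 with windows of 100 and 500 kb and -0.27 for the highest-scoring 50%. The cause of these shifts was not tested. No paired analysis was possible because replicates were combined before calling, and the columns hold no single replicate. With the depth unknown, the absence of a peak does not show that a site was free of CTCF.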
